A study of Mus musculus with 2 samples.

Results

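Stretches of H3K27me3 that lie inside protein-coding genes but away from any transcript start were described in mouse embryonic stem cells. They were selected on the measured peaks: bases under a peak in both replicates were taken on the autosomes, pieces 3 kb or less apart were joined into domains, and a domain was kept if it was 1 kb or longer, lay wholly inside a protein-coding gene and was over 5 kb from every annotated transcript start. Of 16764 domains, 9532 were 1 kb or longer, and 6694 of those lay within 5 kb of a start. The rule left 1063 gene-body domains, 11.2% of the longer domains and 6.34% of all. They lay in 721 host genes. The remaining long domains were 1531 outside genes and 244 of other kinds, and a further 1623 domains inside genes failed only on length. Because the peaks chose the domains, their presence and height are given as a description, and what they share in exon content, place, base composition and host promoter is set beside all sequence that the rule could have taken.

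H3K27me3, trimethylation of lysine 27 of histone H3, is written by Polycomb repressive complex 2 and marks genes held silent. In embryonic stem cells it is best known at CpG-rich promoters of developmental regulators, where it spreads from CpG islands into the flanking chromatin. Gene bodies of active genes carry H3K36me3 instead, a mark that inhibits the Polycomb complex, and most CpG sites outside CpG islands are methylated.

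E14TG2a.4 is a male embryonic stem cell line from 129/Ola mice, labelled embryonic, 3.5 days, and its H3K27me3 was mapped by ChIP-seq, the sequencing of DNA pulled down with an antibody to the mark. The 2 samples, biological replicates 1 and 2, form a single group with no treatment named, and both come from 1 line and 1 donor. No control sample was analysed here, and how many reads each list rests on is unknown, so a missing peak can mean too few reads. The promoters of Pou5f1, Nanog, Sox2, Klf4 and Zfp42, pluripotency genes that define these cells, had 0 bp under a peak in both replicates. That of Esrrb, another such gene, had 1447 bp in replicate 1 and 741 bp in replicate 2. A repressive mark is no measure of expression. With 1 group there is no condition to test, so the value from each replicate's list alone stands as the spread.

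Sequences are shown for 4 kinds of gene-body domain, split by whether at least 50% of the bases were exon and whether the host promoter carried a peak in both replicates or in neither. A further 73 domains, whose host had a promoter peak in 1 replicate, are in none of the 4. The 200 bases around the replicate 1 summit of a highly ranked domain of each kind are printed, with every CpG in capitals. They show the DNA at a summit, not that of a whole domain. Vinac1 and Nfib ranked highest by signal in their kind, whereas Npas3 and Srcin1 came after domains that were not printed, by the rule given with the methods. All positions are on mm10 (GRCm38), and all 4 sequences are the plus strand, 5′ to 3′. The Npas3 stretch (chr12:54068765-54068964) is coding sequence of the last exon, the Vinac1 stretch (chr2:129038794-129038993) is coding sequence of exon 3 on the minus strand gene, the Srcin1 stretch (chr11:97551556-97551755) holds 79 coding bases, and the Nfib stretch (chr4:82536665-82536864) holds no exon base.
Npas3: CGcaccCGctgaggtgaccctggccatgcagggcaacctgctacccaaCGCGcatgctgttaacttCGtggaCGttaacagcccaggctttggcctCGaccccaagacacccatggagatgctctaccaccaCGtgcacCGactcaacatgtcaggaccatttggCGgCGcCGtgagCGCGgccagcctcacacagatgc
Vinac1: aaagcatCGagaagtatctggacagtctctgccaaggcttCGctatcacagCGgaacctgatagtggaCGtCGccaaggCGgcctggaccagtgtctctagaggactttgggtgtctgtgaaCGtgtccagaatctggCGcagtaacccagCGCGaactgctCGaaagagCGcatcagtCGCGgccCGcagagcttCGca
Srcin1: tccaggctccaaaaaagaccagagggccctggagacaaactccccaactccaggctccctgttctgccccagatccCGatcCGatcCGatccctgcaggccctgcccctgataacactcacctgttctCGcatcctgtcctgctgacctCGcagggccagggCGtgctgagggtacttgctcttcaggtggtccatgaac
Nfib: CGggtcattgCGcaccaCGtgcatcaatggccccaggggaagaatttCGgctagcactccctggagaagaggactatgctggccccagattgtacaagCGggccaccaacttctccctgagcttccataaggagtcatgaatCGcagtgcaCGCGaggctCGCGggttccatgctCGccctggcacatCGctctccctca
The 4 stretches hold 14, 16, 6 and 12 CpG sites, in the order printed, with a GC content of 62.0%, 57.5%, 60.5% and 59.5%. Their CpG ratio, the number of CpG found over that expected from the C and G content, was 0.748 for Npas3, 0.97 for Vinac1, 0.345 for Srcin1 and 0.684 for Nfib. Over the whole domains the ratio was 0.656 for Npas3, 0.397 for Vinac1, 0.345 for Srcin1 and 0.26 for Nfib. The 2 replicates placed their summits close together in Vinac1, Npas3 and Nfib (67, 128 and 790 bp apart), but 16.2 kb apart in Srcin1, where the domain is long and holds many peaks.

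Gene-body domains were short, and in 830 of the 1063 the highest peak stood above the median peak of both lists. Their median length was 2730 bp (quartiles 1732 and 4625), with 347 under 2 kb and 63 of 10 kb or longer. Joining matters to these lengths: the bases under peaks in both replicates made up a median of 54.9% of a domain, and in 454 domains they made up less than 50%. The signal value, the authors' peak height on a scale not given in the sources used here, was taken as the highest of the peaks that touch a domain. Its median was 5.48 in replicate 1 and 5.49 in replicate 2. These medians stood at percentile 71.6 of replicate 1's autosomal peaks and percentile 79.6 of replicate 2's. The highest of a domain's peaks, a median of 3 in each replicate, is ranked here among single peaks, which can raise the percentile. Across the 1063 domains the signal values of the replicates correlated with rho 0.668 (Spearman) and r 0.805 (Pearson), and the covered bases with 0.893 and 0.984, or 0.718 and 0.711 once divided by the domain length that the replicates share. These points share the line and the regions, since each domain had to be called in both lists. Replicate 1 had the higher value in 504 domains. The highest −log10 q of each domain's peaks was 2 or more in both lists. Each domain also had a peak in both lists of a second processing run by the authors. The first value comes from the peaks that chose the domains. The second run was on the same replicates, and its lists gave 2614 domains by the same rule. Neither is therefore separate support, and no share over all domains was set beside them.

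**Figure D1:**
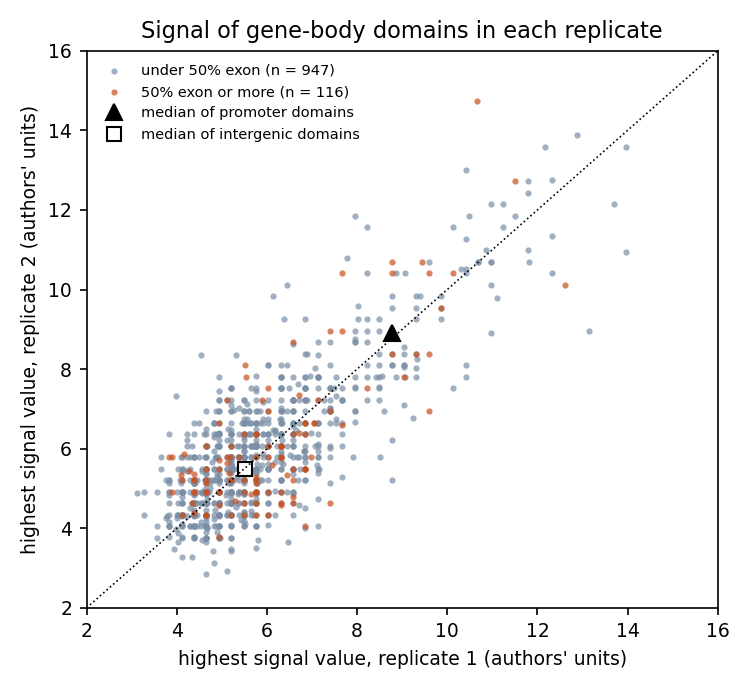
Highest signal value (authors' units) of each of the 1063 gene-body domains in replicate 1 (horizontal) and replicate 2 (vertical), with domains of at least 50% exon in orange and the medians of promoter domains and intergenic domains as black symbols. Most points lie near 5.48 and 5.49, around the intergenic median, and a tail reaches 13.97 and 14.7, past the promoter median of 8.77 and 8.9.

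Set beside other domains of 1 kb or longer, gene-body domains stood closer to those outside genes in length, signal and CpG ratio, and closer to those at promoters in GC content and repeats. The 4324 promoter domains had a median length of 5098 bp and median signal values of 8.77 and 8.9. They held a median of 4 peaks in each replicate, where gene-body and intergenic domains held 3, and the signal is the highest of these peaks. The 1531 intergenic domains had a median length of 2879 bp and median signal values of 5.52 and 5.49. The median CpG ratio was 0.24 in gene-body domains, 0.214 in intergenic ones and 0.378 at promoters, while GC content was closer together, at 51.0%, 49.5% and 51.4%. Repeat sequence made up a median of 12.5%, 17.5% and 13.6%. These medians are a description, since the 3 kinds were split by position within the same lists.

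Exons took up a larger share of gene-body domains than of the sequence within reach, that is, the 668 Mb inside 12666 protein-coding genes and over 5 kb from every start. Exon bases made up 10.6% of the 4.21 Mb of domains and 5.28% of the sequence within reach. Coding sequence accounted for the gap, at 7.55% against 2.01%. The 3′ UTR share was 2.42% against 2.59%. Domains built from replicate 1 alone (1519) had 8.64% exon and those from replicate 2 alone (2250) had 7.35%, both below the share in the common set and above that of the sequence within reach.

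**Figure D2:**
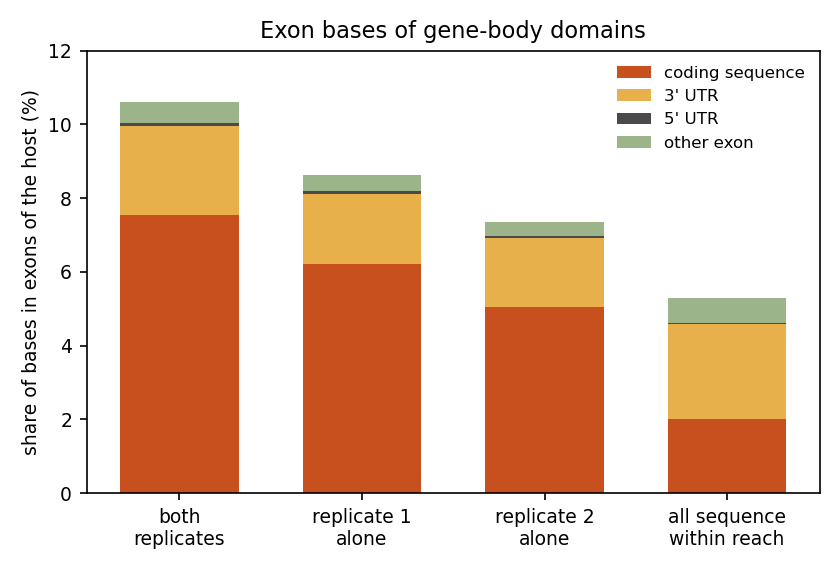
Share of bases (%) that are coding sequence, 3′ UTR, 5′ UTR or other exon of the host in domains of both replicates, in domains of each replicate alone and in all sequence within reach. The bars stand at 10.6%, 8.64%, 7.35% and 5.28%, and the coding part differs most between them.

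Most gene-body domains nevertheless held little or no exon. No exon base fell in 565 of the 1063 (53.2%), whereas 382 were under 50% exon and 116 (10.9%) were 50% or more. Of the 116, 28 were wholly exon. In 66 domains coding sequence alone made up at least 50% of the length. By the representative transcript of each host, 478 domains overlapped an exon, 179 lay in the first intron, 316 in a later intron and 90 outside that transcript altogether. The exon-rich domains were also CpG-rich: their median CpG ratio was 0.378, the same as at promoters, against 0.215 in domains without exon. Their signal was close to that of the domains without exon, with medians of 5.75 and 5.68 against 5.26 and 5.49.

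The base composition of the sequence moved with the mark more than exon content did. In 1 kb tiles of the sequence within reach, 0.642% of 655848 tiles lay at least 50% inside a gene-body domain. That share was 0.0208% in tiles under 35% GC and 7.8% in tiles over 55% GC. Tiles that were at least 50% exon lay in domains in 1.44% of cases and tiles without exon in 0.555%. Within classes of GC content this gap was narrower in some and remained in others. Between 45% and 50% GC the shares were 0.796% for exon-rich tiles and 0.98% for tiles without exon. Between 50% and 55% they were 3.84% and 3.32%, and over 55% they were 10.3% and 6.57%. Between 40% and 45% GC they were 0.328% and 0.222%. Single replicates kept a gap in every class of GC content, with peaks in a larger share of exon-rich tiles. Over 55% GC, a peak lay in 35.1% of exon-rich tiles and 18.3% of tiles without exon in replicate 1. In replicate 2 the shares were 38.4% and 22.5%. Between 45% and 50% GC, where the domains went the other way, they were 5.17% and 4.04% in replicate 1 and 7.38% and 6.12% in replicate 2. Domains themselves had a median GC content of 51.0%, against 42.0% in the tiles, and 1040 of the 1063 were above the tile median. Library preparation and sequencing also respond to GC content, no control sample was analysed here, and the part of this in the pattern was not tested.

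Among the tiles richest in CpG, exon and intron stood far apart. In tiles with a CpG ratio under 0.1, 0.27% lay in a domain, and over 0.6 it was 6.35%. In the class over 0.6 the share was 17.2% for the 267 tiles that were at least 50% exon and 2.68% for the 969 tiles without exon. Under a ratio of 0.3, where most tiles lie, the gap in the domains of both replicates was small or went the other way. The shares were 0.189% and 0.266% under 0.1, 0.563% and 0.502% from 0.1 to 0.2, and 0.79% and 0.69% from 0.2 to 0.3. Single replicates gave the same order in the class over 0.6. A peak lay in 52.8% and 5.88% of these tiles in replicate 1 and in 56.6% and 6.19% in replicate 2. In each class under 0.3, single replicates also had peaks in a larger share of exon-rich tiles than of tiles without exon. Under 0.1 these shares were 2.04% and 1.03% in replicate 1, and 2.76% and 1.53% in replicate 2. From 0.2 to 0.3 they were 4.95% and 2.58%, and 6.28% and 3.85%. Among domains as a whole, however, CpG ratios over 0.6 were rare, with 11 of 1063, and 332 domains were under 0.2. The median of 0.24 stood above the tile median of 0.172, and 850 domains exceeded it.

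**Figure D3:**
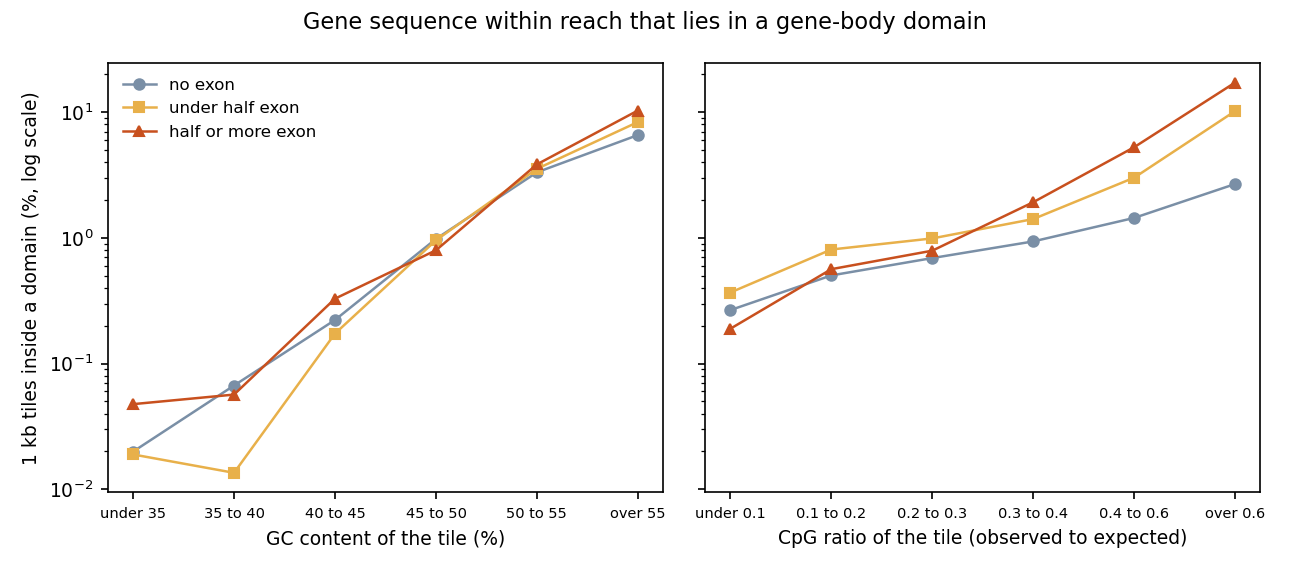
Share of 1 kb tiles of the sequence within reach that lie inside a gene-body domain (vertical, log scale) by GC content (left) and CpG ratio (right), for tiles with no exon, under 50% exon and at least 50% exon. The 3 lines run together from 45% GC up to 55% GC and part over 55%, whereas in the class of CpG ratio over 0.6 they stand at 2.68%, 10.2% and 17.2%. Points under 40% GC for tiles with exon rest on 1 to 3 tiles inside domains.

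Gene-body domains leaned towards the 3′ end of their hosts. The median midpoint lay at 61.9% of the host's length from its 5′ end, against 51.8% for the sequence within reach. The latter counts bases, so long genes weigh most in it, whereas each domain counts once. The comparison was not split by gene length. Replicate 1 alone gave 57.9% and replicate 2 alone 57.1%. Past the midpoint of the host lay 62.0% of domains and 51.9% of the sequence. The last 10% of the host held 159 domains (15.0%) against 10.2% of the sequence, and the first 10% held 39 (3.67%) against 6.32%.

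**Figure D4:**
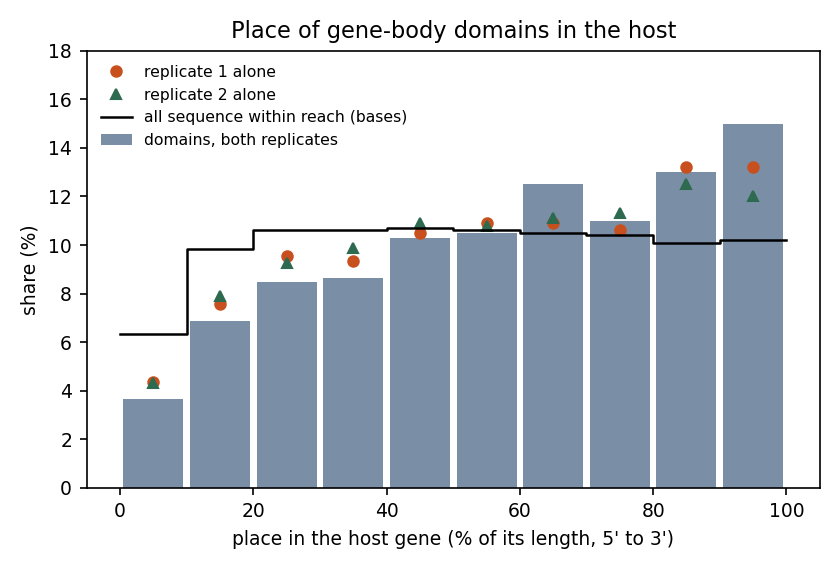
Share of gene-body domains (%) in each 10% of the host's length from 5′ to 3′, as bars for both replicates and as points for each replicate alone, with the share of bases within reach as a black line. The bars rise from 3.67% in the first 10% to 15.0% in the last, where the line is at 6.32% and 10.2%.

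This lean differed with exon content. Among the 116 domains of at least 50% exon, 100 (86.2%) lay past the midpoint, and 82.9% of all exon bases within reach lay there too. Their share in the last 10% was 47.4%, against 48.3% of exon bases, and 73 of the 116 reached the last exon of the representative transcript. Coding bases alone lay less far along, with 75.1% past the midpoint and 23.9% in the last 10%. Of the 382 domains with some exon but under 50%, 285 (74.6%) lay past the midpoint and 17.8% in the last 10%. Domains without any exon base were spread as introns are: 48.5% lay past the midpoint, against 50.2% of intron bases, and 6.37% in the last 10%, against 8.11%. Within 1 kb of the 3′ end of the host lay 48 domains. The rule took only domains wholly inside a gene, and no share of the sequence within reach was set beside this count.

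Most hosts also carried the mark at their promoter, a call that the selection did not use. A promoter was called marked where the 1 kb on each side of the gene's 5′ end overlapped a peak in both replicates. Of the 721 hosts, 510 (70.7%) were marked, 50 had a promoter peak in 1 replicate and 161 (22.3%) had none. This call reads the gene's 5′ end alone: 48 of the 161 were marked in both replicates at another transcript start. No start at all carried a peak in 104 of the 721 hosts (14.4%). Of all 20807 autosomal protein-coding genes 26.8% were marked, and of the 12666 with at least 1 kb within reach 30.2%. By replicate 1 alone the hosts stood at 72.1% against 32.2%, and by replicate 2 alone at 76.3% against 34.7%. Within 0.5 kb of the start the shares were 63.2% and 24.9%, within 2.5 kb 75.5% and 35.3%, and at any transcript start of the gene 80.7% and 34.5%.

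Long genes hold more sequence within reach and were marked more often, so the call was also read by length. In genes with under 10 kb within reach, 55.3% of hosts and 22.1% of other genes were marked. Between 30 and 100 kb the shares were 72.4% and 32%. Over 300 kb they met, at 62.9% and 61.5%. Read the other way, 2.66% of marked genes and 0.621% of unmarked genes under 10 kb held a gene-body domain, and between 100 and 300 kb 22.3% and 6.91% did. Over 300 kb the shares were 21.4% and 20.4%, so in the longest genes hosts and other genes lay close together in both readings.

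**Figure D5:**
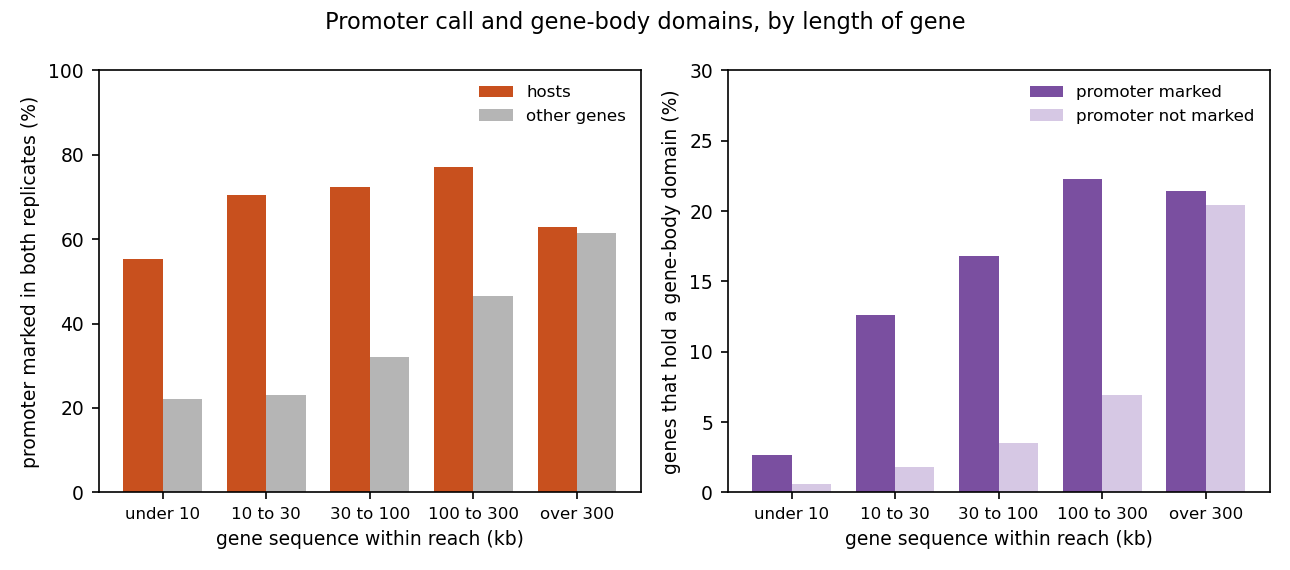
Left, share of genes (%) whose promoter is marked in both replicates, for hosts of gene-body domains and for other genes; right, share of genes (%) that hold a gene-body domain, for genes with and without a marked promoter, both by kb of gene sequence within reach. The bars of each pair differ in the 4 classes up to 300 kb and are level over 300 kb, at 62.9% and 61.5% on the left and 21.4% and 20.4% on the right.

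Marked hosts stood above other marked genes in the strength of the promoter itself. The median promoter signal of the 510 marked hosts was 9.4 in replicate 1 and 9.25 in replicate 2, against 7.63 and 7.52 in the 3319 other marked genes within reach. The domain over the start had a median length of 6709 bp in hosts and 4066 bp in the others. Marked hosts were more common among long genes than among short ones, and these medians were not split by gene length. Another domain lay within 10 kb of 621 gene-body domains (58.4%), so many lay near other marked sequence. The nearest protein-coding start belonged to the host in 638 cases. In the other 425 it belonged to another gene, and that gene's promoter was marked in 166. Of the 229 domains whose host had no promoter peak, 57 had a marked neighbour as the nearest start. Among the 229 are 26 domains of Gm20388, a gene model that contains 71 other protein-coding genes and whose own start was never the nearest. The 229 had the same median signal values as the 761 in marked hosts, 5.48 and 5.49, and a similar median length, 2577 against 2755 bp.

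The longest gene-body domain spanned 47874 bp of Kcnq1, which encodes a voltage-gated potassium channel and lies in an imprinted region. It ran over exons 3 to 10 of 16 (chr7:143154553-143202426), with signal values of 9.04 and 8.55. Peaks covered 41586 bp of it in replicate 1 and 40300 bp in replicate 2, and 1.91% of its bases were exon. The next was in Pappa, the gene of a secreted protease that cleaves binding proteins of insulin-like growth factors, with 43086 bp around exons 9 and 10 and signal values of 10.5 and 11.9. Then came Kif26b of the kinesin family (30914 bp) and the cadherin gene Cdh22 (30527 bp). The domain of Cdh22 held no exon base and lay in the first intron. These 4 hosts had marked promoters, with promoter signal values between 10.1 and 15.6 in the replicates.

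Further domains among the 10 longest were in Stk32c, a kinase gene (26454 bp), Cdh23, a cadherin of hair-cell links (25194 bp), Sobp (22860 bp), Nfix of the nuclear factor I family (22333 bp) and Pax3, a regulator of neural crest and muscle (20898 bp). Their signal values ran from 8.49 to 10.96 in replicate 1 and from 7.82 to 11.3 in replicate 2. The exon share was at most 8.47%, in Sobp. Pax3, Nfix and Sobp had marked promoters with signal values of 10.99 or more in both replicates. Cdh23 was marked by short, low peaks of 195 and 466 bp. Stk32c had no peak within 1 kb of its gene start in either replicate but a marked start elsewhere in the gene. Length and GC content did not go together here: Pappa and Pax3 were at 41.8% and 41.3% GC, near the tile median.

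The strongest domain by the lower of its 2 percentile ranks lay in an intron of Nrg2, which encodes a neuregulin, a ligand of ErbB receptors. Its signal values were 13.97 and 13.6, at percentiles 99.3 and 99.4, over 13362 bp without exon. Zfhx3, a zinc finger homeobox gene, followed with 13.7 and 12.2 over a domain that took in bases of exon 8 and was 27.7% exon. Macrod1, which encodes an enzyme that removes ADP-ribose, had 12.9 and 13.9 in an intron domain of 15477 bp. The domain of Nrg2 had signal values above those of its host's own promoter, 7.95 and 8.68. Zfhx3 and Macrod1 had no promoter peak in replicate 1 and one of 294 and 578 bp in replicate 2 (another start of Zfhx3 carried peaks in both), so at the gene start in all 3 genes the body carried the higher signal.

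The rest of the 10 strongest were Srcin1, a scaffold protein that inhibits Src kinase (12.3 and 12.8), the transcription factor genes Rfx4 (12.3 and 11.3) and Ebf4 (12.2 and 13.6), the RNA-binding protein gene Celf4 (11.8 and 12.4), Nfib (11.8 and 10.99), Ryr1, the calcium release channel of skeletal muscle (11.8 and 12.7), and Kif26b (13.97 and 10.95). Rfx4, Ebf4 and Kif26b had promoter signals at or above 13.6 in both replicates. Srcin1 had lower signal at its promoter than in its body, 7.12 and 6.47. Nfib had no peak at any annotated start. Its domain of 9612 bp was 50.1% GC, lay 22790 bp from the nearest start and 166442 bp from the next domain, and thus stood alone.

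Among domains of at least 50% exon with a marked host promoter, the strongest were in Ttbk1, Zfp697 and Npas3. Ttbk1 encodes a kinase of tau and tubulin, and its 11000 bp domain had signal values of 10.7 and 14.7. The exon bases there were 59.9% of the domain as 3′ UTR of another transcript and 2.78% as coding sequence, and the representative transcript had an intron at that place. The Zfp697 domain (12.6 and 10.1) covered exons 2 and 3 of 3, with 25.2% coding sequence and 47.7% 3′ UTR. Npas3, a basic helix-loop-helix transcription factor gene of 823 kb, had its domain of 3909 bp at 99.6% of its length over the last exon, with signal values of 10.1 and 10.4 and a promoter at 9.94 and 10.5. Its sequence above, all coding, has a CpG ratio of 0.748, where the whole domain has 0.656. Of 116 exon-rich domains 78 had a marked host promoter, 26 had a host without promoter peak and 12 a host with a peak in 1 replicate.

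Exon-rich domains in hosts without any promoter peak were led by Vinac1, Zfp444 and Zbtb20. The Vinac1 domain of 3605 bp was covered end to end by peaks in both replicates, with signal values of 11.5 and 12.7, and exon 3 made up 88.9% of it. Vinac1 belongs to the vinculin and alpha-catenin family, and no annotated start of the gene carried a peak. The domain of Zfp444, a zinc finger gene, lay over its last exon, with 7.67 and 10.4. That of Zbtb20, a transcription factor gene of 767 kb, lay over coding exon 14 at 95.7% of the gene's length, with 7.67 and 6.60. Both were marked at no start of their own in either replicate, within 1 kb of the 5′ end or at any other transcript. Domains under 50% exon in such hosts were led by Nfib, Gm20388 and Zfp652, a zinc finger gene with 10.4 in both replicates.

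Most hosts held a single domain, and a few held many. Of the 721 hosts, 537 had 1 domain, 108 had 2 and 76 had 3 or more. Those 76 held 310 domains (29.2%). Prdm16, which encodes a zinc finger regulator of brown fat and blood stem cells, had 11 domains over 53.2 kb of its 321 kb, with signal values from 4.38 to 7.40 in replicate 1 and from 4.45 to 7.23 in replicate 2. Its promoter had higher values, 12.1 and 13.6. Celf4 and Gse1 had 7 domains each and Zfp536, a zinc finger gene, had 6. The domains of Celf4 covered 69.0 kb, with signal values from 4.11 to 11.8 and from 5.78 to 12.4, and all 4 of these hosts had marked promoters.

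Gm20388 was the nominal host of 26 domains and is a special case of the annotation. The model spans 4430 kb of chromosome 8 (chr8:119910841-124345722) and contains 71 other protein-coding genes. No domain in it touched an exon of its own, none had its start as the nearest, and its promoter had no peak. Its strongest domain, at 11.5 and 11.9, lay nearest to Zfpm1, whose promoter was marked. Without these 26 domains the share of marked hosts was 70.8% and the median place 62.6%.

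Hosts were counted in 19 lists of genes chosen with earlier results of these data known, each beside the 5.69% of all genes within reach that were hosts and beside the share that genes of the same lengths had. Developmental transcription factors stood highest, with 25 hosts of 72 (34.7%, against 11.2% by length) and 53 domains. Their strongest domains were in Zfhx3, Ebf4 and Nfib. Of these 72 genes 81.9% had a marked promoter, and 20 of the 25 hosts did. Notch, Wnt and Hedgehog genes had 5 hosts of 31 (16.1%, against 5.89%), all with a marked promoter, where 87.1% of the list had one. Wnt3a, a Wnt ligand, held a domain of 6453 bp in intron 2 with signal values of 10.7 and 10.7. Ror2, a Wnt receptor, and Wnt5b, a ligand, had lower ones, 7.67 and 7.23, and 6.03 and 5.49.

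Lists of ion channels, synaptic genes and axon guidance genes followed. Voltage-gated and potassium channels had 30 hosts of 111 (27%, against 9.26% by length). Of the 30 hosts 24 were marked at the promoter, where 73% of the list was. The domain of the potassium channel gene Kcnh4 covered exons 8 to 13 of 17, with signal values of 10.4 and 10.5, above those of its promoter, 6.72 and 8.10. The sodium channel gene Scn8a had 8.03 and 9.58 around exon 12. Synaptic adhesion and scaffold genes had 13 hosts of 62 (21%, against 13.6%), led by Dlgap2, Shank3 and Cntn3. The Shank3 domain, over the large exon 21 of this scaffold gene, was 37.9% coding, with 8.22 and 11.6. Axon guidance genes had 11 hosts of 55 (20.0%, against 11.5%), all with a marked promoter, where 78.2% of the list had one. Among them the semaphorin receptor gene Plxna4 had 8.42 and 7.81, and the Eph receptor genes Ephb1 and Ephb2 had 6.64 and 6.48, and 6.68 and 5.21. Neurotransmitter receptors were near the share by length, with 9 of 75 (12.0%, against 9.84%). Gabrr1 and Gabbr2 were among them.

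In the list of myosins and giant muscle proteins, most hosts held the mark in the body without a gene start marked in both replicates. This list had 8 hosts of 46 (17.4%, against 10% by length), and 1 of the 8 had a marked promoter, where 37% of the list did. The Ryr1 domain lay over exons 94 to 96 of 109 and had no promoter peak in replicate 1 and one of 422 bp in replicate 2, although another of its starts carried peaks in both. Myh4, a fast muscle myosin, carried a domain of 6612 bp over exons 24 to 37 of 39, with 36.9% coding sequence, signal values of 7.12 and 7.81 and no promoter peak in either replicate. Myo3b had an intron domain at 5.23 and 5.56, likewise without promoter peak, although another of its starts carried a peak in replicate 2. Axonemal dynein heavy chains, motors of cilia, had 2 hosts of 15 (13.3%, against 13.8%). Neither host had a promoter marked in both replicates, where 13.3% of the list did. They were Dnah7b, at 9.04 and 8.10, and Dnah2, at 7.12 and 5.94. Dnah2 had a promoter peak of 297 bp in replicate 2 alone, and another of its starts carried peaks in both replicates.

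Other lists stood nearer to the share by length or under it. Cadherins had 7 hosts of 52 (13.5%, against 10.1%), with Cdh22, Cdh23 and Fat1 leading. Solute carriers had 19 of 260 (7.31%, against 5.8%), led by Slc8a2, a sodium-calcium exchanger (9.59 and 10.4), Slc9a9 and Slc9a3. Adhesion G-protein-coupled receptors had 3 of 23 (13%, against 8.84%), namely Adgrb1, Adgra1 and Adgrd1. Receptor tyrosine phosphatases had 2 of 19 (10.5%, against 13.7%), Ptpre and Ptprn2. Zinc finger Zfp genes had 12 of 302 (3.97%, against 3.64%). Collagens had 2 of 41 (4.88%, against 8.73%), Col13a1 and Col4a2, although 70.7% of this list had a marked promoter. Basement membrane and matrix genes had 2 of 34 (5.88%, against 10.7%), Acan and Ltbp2. Adam, Adamts and Mmp proteases had 0 of 55, where genes of their lengths had 7.42% and 43.6% of the list had a marked promoter.

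Of 11 pluripotency genes within reach 1 was a host (9.09%, against 2.95% by length). It was Esrrb, an orphan nuclear receptor of the pluripotency network, with 3 domains, the strongest of 5966 bp at signal values of 8.77 and 9.83. Its promoter peaks were lower, 4.38 and 5.49. Polycomb complex genes had 2 hosts of 24 (8.33%, against 6.03%), Sfmbt2 at 5.78 and 5.62 and Scml4 at 5.75 and 5.40. Cell cycle and housekeeping genes had 0 of 17, where 1.89% by length amounts to under 1 gene.

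Density varied between chromosomes from 0.743 domains per Mb within reach on chromosome 3 to 2.55 on chromosome 11. At the limits of the rule, domains inside and outside had signal values of the same order. The shortest domains inside it were of 1000 bp in Prdm16 (4.38 and 5.21) and 1002 bp in Gm20388 (5.48 and 5.34), and just outside lay domains of 996 bp in Fibcd1 (4.66 and 5.21) and 995 bp in Rbfox3 (5.75 and 4.92). Nearest to a start inside the rule were domains of Sdcbp2 and Ano1, at 5016 and 5020 bp. Just outside were those of Hspa12b at 4991 bp and Maml3 at 4985 bp, the latter with signal values of 9.31 and 7.83.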

How the data were processed

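H3K27me3 ChIP-seq peak lists of 2 biological replicates of 1 line were analysed. The deposited lists are the authors' own calls on each replicate, in build mm10. How reads were aligned, peaks called and a control used was not given in the sources used here, nor the scaling of signal. Each peak has a deposited signal value, a deposited −log10 q and a summit distance. Signal was used for ranks and description alone. The main lists held 62896 and 97283 autosomal peaks; depth is unknown, so no interval could be given.

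Peaks of each list were merged, intersected, and joined as the report describes, on 19 autosomes. Genes and starts came from GENCODE mouse release 21, and sequence and repeat masking from RefSeq's GRCm38 assembly. The host was the shortest protein-coding gene containing a domain (16 domains had several), and the representative transcript is its transcript with the longest coding sequence. The share by length applies the host share of each of 5 length classes (edges 10, 30, 100 and 300 kb) to a list's genes. Genes were named by a rule: the 10 longest domains, the 10 with the highest lower percentile of signal, the 5 hosts with most domains, the top 3 of each exon and promoter class, up to 3 per list, and those nearest the limits; a few that it takes are not reported here. Sequences come from the first domain of each class on a chromosome other than 18 whose summit stretch holds no UTR. The domains and lists were chosen with earlier results of these data known. Alternatives were other joining distances, limits, starts, promoter windows, lists and single replicates. The interval functions were tested on simulated data. The tools were NumPy 2.4.6 and SciPy 1.17.1, pandas 2.3.3 for tables and Matplotlib 3.10.9 for figures, under Python 3.11.15.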

Additional observations from a re-analysis of the deposited data

How the results depend on the processing

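No paired analysis was possible because the series has 1 group and no result comes from a test. Lists from single replicates gave 1519 to 2250 domains, a median length of 2788 to 2887 bp, an exon share of 7.35% to 8.64%, a median place of 57.1% to 57.9%, marked hosts of 71.1% to 73.1% and a CpG ratio of 0.225 to 0.234. The authors' other lists gave 2614 domains of 2830 bp, 6.8% exon, place 56.4%, 76.4% marked and a ratio of 0.225. With 1 kb joining, length was 1980 bp, exon share 14%, place 60.2% and marked hosts 72.6%; with 5 kb, 3185 bp, 9.31%, 62.8% and 68.6%. Domains of 2 kb or longer had 3668 bp, 9.63% and place 62.7%. Over 10 kb from starts, the values were 2852 bp, 8.66% and 62.8%; over 2.5 kb, 11.8% exon, place 61.3% and 67.7% marked. Avoiding coding starts only gave 2836 bp, 12.5% and 63.4%. Whole overlapping peaks gave 2633 bp and place 61.2%. Promoter windows of 0.5 and 2.5 kb gave 63.2% and 75.5% marked, and any start 80.7%. In 2 alternatives chosen after seeing the data, leaving out Gm20388 gave a place of 62.6%, and keeping domains with common bases over at least 50% of their length gave 609 domains of 2253 bp, 13.8% exon, place 62.6%, 72.3% marked and a ratio of 0.26. In every setting listed the exon share stayed above 5.28%, the place past 51.8%, the marked share above 30.2% and the CpG ratio above 0.172. These are the values of the sequence or genes within reach by the main rule. They were not recomputed for other distance limits, other starts or the authors' other lists, which would have backgrounds of their own. For the 2.5 kb window and any start, the marked share of genes within reach was 35.3% and 34.5%. Depth is unknown and limits which weak domains both lists hold; replicate lists differ in length.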
